A study of Mus musculus with 12 samples.

Results

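The SLC25 family of mitochondrial carriers was followed in the quadriceps, a thigh muscle, of C57Bl/6J mice given the drug GW1516, treadmill training or both. Most SLC25 proteins sit in the inner mitochondrial membrane and exchange one solute of the matrix for another of the cytosol: ADP for ATP, phosphate for hydroxide, malate for oxoglutarate, amino acids, cofactors and metals. Working muscle depends on them, because ATP made in the matrix leaves it, and phosphate, ADP and reducing equivalents enter it, through such carriers. GW1516 is a synthetic agonist of the nuclear receptor PPARdelta, which in muscle is known for switching on genes of fatty acid use.

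The members were all probe sets whose array annotation gave a single gene symbol beginning with Slc25a. Slc25a20, the carnitine and acylcarnitine carrier, was left out. This gave 63 probe sets for 32 genes, out of 20380 non-control probe sets for 12393 genes with a single symbol. Each gene was summarised by the probe set with the highest mean log2 signal over all arrays. There was 1 probe set for 18 of the genes and several for 14. Since probes differ in how brightly they hybridise, signals were compared between groups within a probe set and not between genes. The carriers Slc25a1, Slc25a12 and Slc25a34 were not analysed here.

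The 12 arrays fell into 4 groups of 3. The combination group received GW1516 at 5 mg/kg/day and was trained on a treadmill. The GW group received the same dose without training, the exercise group was trained and given vehicle, and the vehicle group was sedentary and given vehicle. All groups were treated for 4 weeks. Each array held quadriceps RNA pooled from 3 mice of 1 group, so the spread between arrays is that between pools, and the labels do not say whether pools of a group shared mice. The age and sex of the mice were not given in the labels. The array medians lay between 48.4 and 57.2 signal units. Skeletal muscle markers were bright on every array, creatine kinase Ckm between 17623 and 23327. Actb, read by probe sets at its 3' and 5' ends as a sign of RNA integrity, had a ratio between them of 0.803 to 0.841 with the combination, 0.801 to 0.916 with GW, 0.763 to 0.816 with exercise, and 0.838 to 1.10 with vehicle. It was thus lower in every exercise array than in any vehicle array, and its part in the values below was not tested.

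Tests were made in 1 limma model over all arrays, with p-values adjusted over 13575 probe sets, and a gene was called where its adjusted p was under 0.05. Of the 32 genes, 28 were bright enough to be tested, by a mean over all groups. The other 4 lay near or below the background level of 23.5 set by bacterial control probe sets. Slc25a13, the aspartate and glutamate carrier citrin of liver, was above that level on 0 of 12 arrays, and so was the orphan carrier Slc25a48. Slc25a24, a calcium-regulated ATP-magnesium and phosphate carrier, passed the level on 2 arrays, both of the GW group, where its signals were 33.4, 2.93 and 25.3. Its combination arrays had 2.36, 7.30 and 2.43, its exercise arrays 4.28, 6.46 and 2.67, and its vehicle arrays 1.88, 2.63 and 3.44. Slc25a2, an ornithine carrier, passed on 5 of 12 arrays. The mean signals of these 4 genes lay below the filter of 28.4, and they were not tested.

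No Slc25 gene changed by the test in any of 8 comparisons. The count was 0 of 28 genes and 0 of 50 probe sets each time, in limma with Benjamini-Hochberg adjustment. Over all probe sets the same rule called 0.155% for the combination against vehicle, 0.0958% for GW against vehicle and 0.0147% for exercise against vehicle. It called 0.162% for the combination against exercise and 0% for the combination against GW. For the interaction, which is the drug effect in trained minus that in sedentary muscle, it called 0%. For the drug averaged over training (combination and GW against exercise and vehicle) it called 0.317%, and for training averaged over the drug (combination and exercise against GW and vehicle) 0.0147%. Calls were rare throughout the array, so a count of 0 among 28 is close to what the background share gives.

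At an unadjusted p under 0.05 some carriers did pass. There were 8 of 28 genes for the combination against vehicle, where the background was 8.95%. There were 2 for GW against vehicle (background 5.86%) and 4 for exercise against vehicle (10.6%). The combination had 5 against exercise (9.14%) and 4 against GW (5.62%). The interaction had 6 (7%), the averaged drug effect 3 (7.9%) and the averaged training effect 6 (8.75%). Genes of a family on the same 12 arrays are not independent, and the 3 comparisons with vehicle share their vehicle arrays.

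The intervals show how large a change the arrays could have missed. For the combination against vehicle, the 95% interval of the fold change stayed within 1.5-fold either way for 12 of 28 genes and within 2-fold for 22. For GW against vehicle these counts were 14 and 23, and for exercise against vehicle also 14 and 23. The intervals of the remaining genes reached past those limits.

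**Figure D1:**
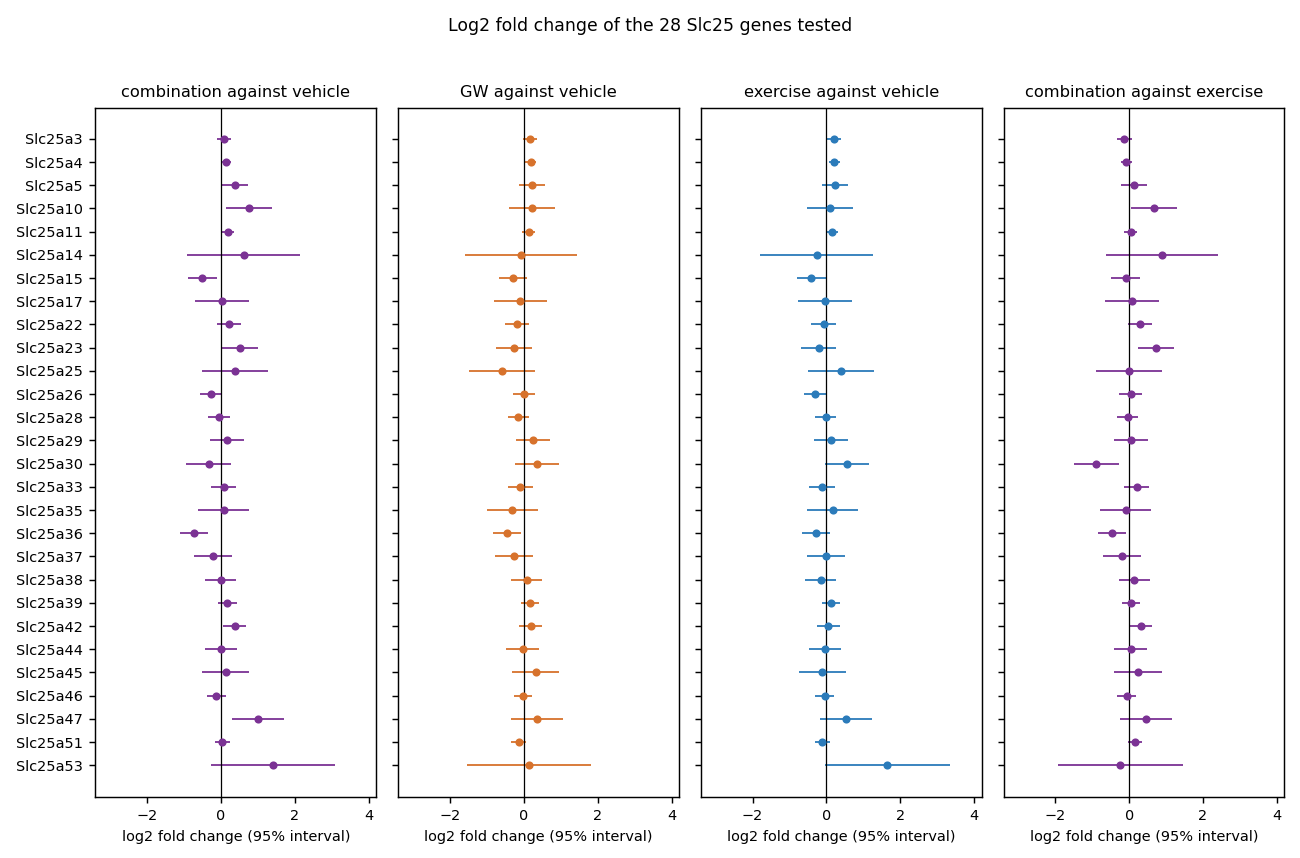
Log2 fold change of each of the 28 Slc25 genes tested, with its 95% confidence interval from the limma model (horizontal axis), for the combination, GW and exercise each against vehicle and for the combination against exercise. Most intervals cross 0, those of the brightest carriers are narrow, and none of the genes had an adjusted p under 0.05.

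The adenine nucleotide and phosphate carriers supply the ATP synthase and move its product out. Of 6 such genes 5 were tested, and 0 passed the test in any comparison. Against vehicle their log2 fold changes were above 0 in 5 of 5 for the combination, 3 of 5 for GW and 4 of 5 for exercise, with medians of 0.37, 0.16 and 0.21. The medians over all 7940 genes with a tested probe set were -0.01, -0.02 and -0.01 in the same order.

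Slc25a4 encodes ANT1, the ADP/ATP exchanger of heart and skeletal muscle. Its signals were 12934, 12440.0 and 13657 with the combination, 13872, 12301 and 14439 with GW, 13091, 13876 and 14246 with exercise, and 12046, 11822 and 11726 with vehicle. All 9 arrays from drug-treated or trained mice lay above all 3 vehicle arrays, and the 9 overlapped among themselves. The log2 difference from vehicle was 0.13 ± 0.07 for the combination (SE; adjusted p = 0.547), 0.19 ± 0.07 for GW (0.703) and 0.21 ± 0.07 for exercise (0.316). The largest of these, for exercise, is 1.16-fold with a 95% interval of 1.05 to 1.28. All 4 probe sets of Slc25a4 gave positive differences in these 3 comparisons, down to 0.05, and 0 were called. The next brightest probe set also had all vehicle arrays lowest, but the dimmer ones did not. In one, combination array 2 at 4514 and GW array 1 at 4518 lay below all vehicle arrays. In the dimmest, GW array 1 at 92.9 lay within the vehicle arrays. The 10 muscle fibre markers, all bright, also lay above vehicle in the mean, with median log2 differences of 0.17 for the combination, 0.13 for GW and 0.23 for exercise, all 10 positive each time and 0 called. Their part in the values of Slc25a4 and Slc25a3 was not tested.

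Slc25a3, the phosphate carrier, had signals of 7520.3, 6908 and 7259 with the combination, 8812, 6603 and 7622 with GW, 7887, 8268 and 7551 with exercise, and 7236, 6713 and 6538 with vehicle. The exercise arrays were above all vehicle arrays and above all combination arrays, while the GW arrays overlapped every other group. The log2 difference was 0.21 ± 0.09 for exercise against vehicle (adjusted p = 0.433) and -0.13 ± 0.09 for the combination against exercise (0.72).

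Slc25a5 encodes ANT2, the ADP/ATP exchanger of dividing cells and many tissues. Its signals were 686, 744 and 746 with the combination, 883, 492 and 645 with GW, 614, 719 and 651 with exercise, and 660.0, 509.7 and 526 with vehicle. The combination arrays lay above the vehicle arrays without overlap, with a log2 difference of 0.37 ± 0.17 (adjusted p = 0.493). Of its 5 tested probe sets, 4 gave a positive difference and 1 gave -0.07. The transcripts of Slc25a4 and Slc25a5 are close relatives, and the probe sets used for Slc25a5 are mostly of a kind marked as able to bind related transcripts, so how much each reads the other is uncertain.

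Slc25a23 and Slc25a25 belong to the calcium-regulated carriers that exchange ATP-magnesium for phosphate and so set the adenine nucleotide pool of the matrix. Slc25a23 had signals of 88.8, 91.9 and 128 with the combination, 57.9, 57.1 and 62.4 with GW, 71.2, 61.4 and 52.5 with exercise, and 67.5, 74.5 and 71.4 with vehicle. The combination arrays stood above all 9 others, and the GW arrays lay below all vehicle arrays. Its log2 differences were 0.73 ± 0.22 for the combination against exercise (adjusted p = 0.327), 0.78 ± 0.22 for the combination against GW (0.716) and 1.00 ± 0.32 for the interaction (0.703). The combination differed from vehicle by 0.51 ± 0.22 (0.484). With the mean log2 signal of fat cell markers, which were high on combination arrays 2 and 3, as a covariate, that difference was 0.34 ± 0.30 (0.8). The same covariate gave 0.58 ± 0.28 for the combination against exercise (0.693) and 0.62 ± 0.28 against GW (0.882). It gave 0.87 ± 0.35 for the interaction (0.833).

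Slc25a25, whose loss is known to lower endurance in mice, had the widest spread between arrays of a group among the members above background on all 12 arrays. Its signals were 1389, 858 and 444 with the combination, 326, 447 and 470.4 with GW, 736, 739 and 982 with exercise, and 285, 715 and 1159.6 with vehicle. The combination and vehicle pools each spanned a wider range than the GW and the exercise pools, and the vehicle range covered every GW and exercise array. Training averaged over the drug gave 0.69 ± 0.30 (adjusted p = 0.526), and the combination differed from GW by 0.98 ± 0.42 (0.849). The difference from GW was 0.59 without combination array 1 and 1.77 with the fat marker covariate.

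**Figure D2:**
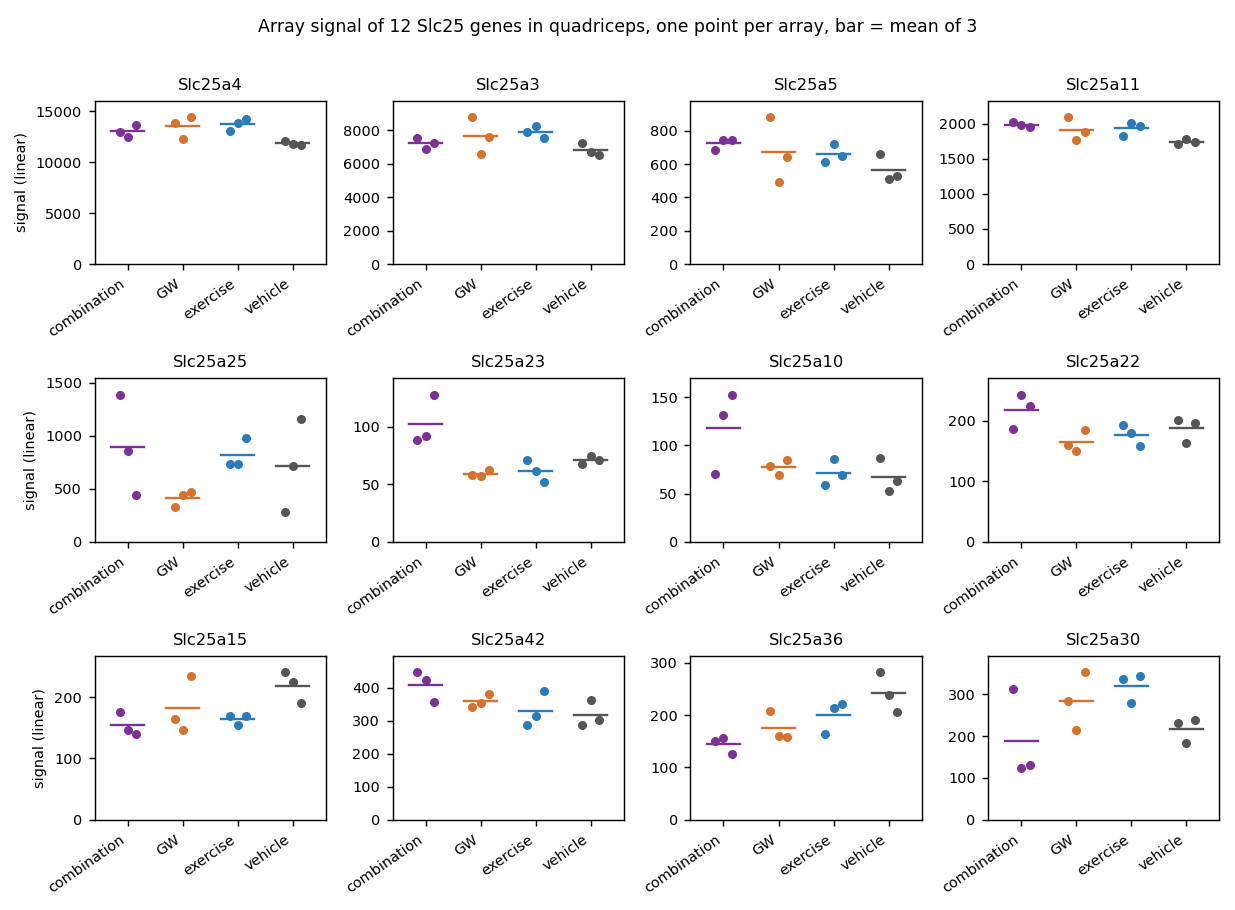
Signal of 12 Slc25 genes (vertical axes, linear signal units from 0, a scale per gene) on each array, 1 point per pool of 3 mice, with bars at the mean of 3 arrays, for the combination, GW, exercise and vehicle groups. The vehicle arrays of Slc25a4 lie below the other 9, the combination arrays of Slc25a23 lie above the other 9 and those of Slc25a36 below the other 9, and in Slc25a30 the first combination array stands apart from the other two.

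The dicarboxylate and oxoglutarate carriers link the Krebs cycle to the cytosol. All 3 genes were tested, 0 were called, and all 3 differences from vehicle were positive for the combination and for exercise. Slc25a11, the oxoglutarate and malate carrier of the malate-aspartate shuttle, had 2021, 1974 and 1949.7 with the combination, 2095, 1765 and 1877 with GW, 1818, 2012 and 1965 with exercise, and 1714, 1785 and 1732 with vehicle. Combination and exercise arrays were all above the vehicle arrays, by 0.18 ± 0.08 (adjusted p = 0.482) and 0.15 ± 0.08 (0.538) on the log2 scale.

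Slc25a10, the dicarboxylate carrier, known for its high level in fat and liver, had signals of 70.1, 131 and 153 with the combination, 78.3, 69.8 and 85.3 with GW, 58.5, 85.9 and 69.4 with exercise, and 86.5, 53.3 and 63.0 with vehicle. Combination arrays 2 and 3 lay above all others and combination array 1 lay within them. The difference between combination and vehicle was 0.76 ± 0.29 (log2; adjusted p = 0.419). With the mean log2 signal of the fat cell markers as a covariate it was 0.11 (0.953), and without combination array 1 it was 1.09 (0.123), where 0.383% of all probe sets were called.

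Fat cell markers were high on the same arrays. Of 10 listed markers 7 were on the array and 5 were tested: Adipoq, Retn, Cidec, Fabp4 and Car3, of which Fabp4 and Car3 are also expressed in muscle. Leptin and Ucp1, the other two on the array, were below the filter on low signal. The summed signal of the 7 ranged over 7065 to 15796 with the combination, 6005 to 9106 with GW, 6449 to 7969 with exercise, and 6550 to 7337 with vehicle. Adipoq, which encodes adiponectin and defines fat cells, had 270, 1049 and 1471 with the combination, 248, 346 and 363 with GW, 283, 338 and 334 with exercise, and 331, 210 and 365 with vehicle. None of the 5 was called. Their mean log2 signal, used as the covariate, was 10.32 and 10.98 on combination arrays 2 and 3 and at most 9.18 elsewhere. High values were thus confined to that group. A fit with the covariate cannot separate these markers from the treatment or from other differences of combination array 1. Their part in the carrier values was not tested otherwise. In whole muscle a change in the number of cells of a type and a change in RNA per cell cannot be told apart.

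**Figure D3:**
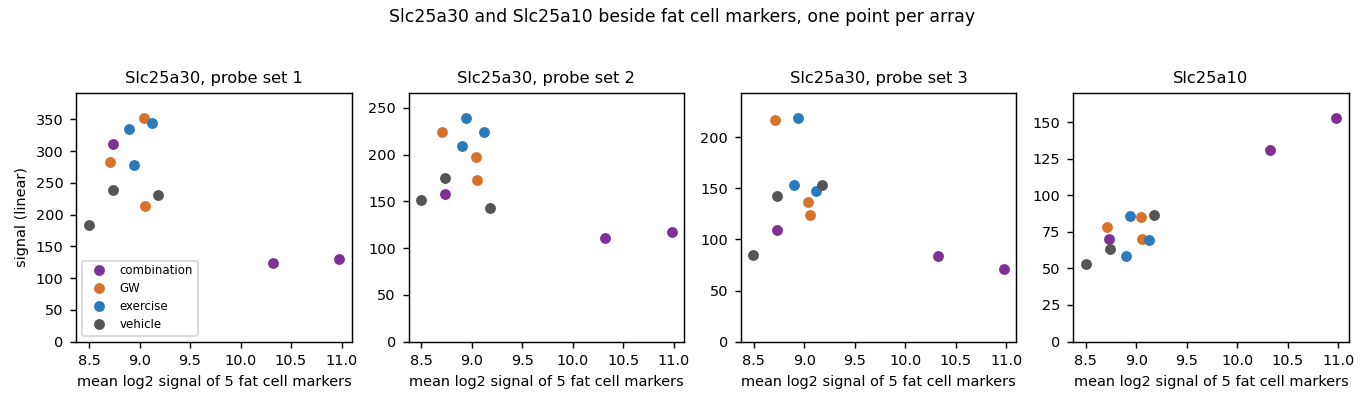
Signals of the 3 tested probe sets of Slc25a30 and of Slc25a10 (vertical axes, linear signal units from 0) against the mean log2 signal of 5 fat cell markers on the same array (horizontal axis), with 1 point per array in the combination, GW, exercise and vehicle groups. Combination arrays 2 and 3, at 10.32 and 10.98, stand apart from the other 10, which lie between 8.50 and 9.18.

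The amino acid carriers numbered 7, of which 5 were tested and 0 called, and their median log2 difference from vehicle was 0.00 for the combination, -0.03 for GW and -0.08 for exercise. Slc25a15, the ornithine carrier of the urea cycle, had 176, 146 and 140.2 with the combination, 164, 146 and 235 with GW, 169, 154 and 169 with exercise, and 240.3, 225 and 191 with vehicle. Combination and exercise arrays all lay below the vehicle arrays, with log2 differences of -0.51 ± 0.18 (adjusted p = 0.376) and -0.41 ± 0.18 (0.458). The GW group overlapped vehicle through its array at 235. A dimmer probe set of Slc25a15, just below the filter and not tested, went the other way for the combination. Its combination arrays, at 51.4, 53.5 and 47.2, lay above all other arrays, and its vehicle arrays were at 30.0, 20.3 and 40.5.

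Slc25a22, a glutamate carrier, had 186, 243 and 224 with the combination, 159.6, 151 and 185 with GW, 193, 179.7 and 159 with exercise, and 202, 164 and 196 with vehicle. The combination arrays lay above the GW arrays, by 0.40 ± 0.16 on the log2 scale (adjusted p = 0.834), and overlapped exercise and vehicle. With the fat marker covariate the difference from GW was 0.23 ± 0.19 (0.98). Slc25a44, a carrier of branched-chain amino acids into mitochondria, had 184, 192 and 207 with the combination, 186, 205 and 180.2 with GW, 145, 162 and 288 with exercise, and 192, 178 and 213 with vehicle. Its difference between the combination and vehicle was 0.00 ± 0.21, with a 95% interval of -0.44 to 0.44, and all groups overlapped. Its other probe sets gave -0.17 ± 0.20 and 0.25 ± 0.35.

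The cofactor and nucleotide carriers numbered 6, all tested and 0 called. Their median log2 difference from vehicle was 0.03 for the combination, -0.09 for GW and -0.12 for exercise. Slc25a36, a carrier of pyrimidine nucleotides, had the lowest adjusted p of the summarised genes. It had signals of 151, 156 and 125 with the combination, 209, 160.1 and 158 with GW, 163, 214 and 221 with exercise, and 281, 238 and 206 with vehicle. The combination arrays lay below all 9 others, and the vehicle group had the highest mean. The difference between combination and vehicle was -0.74 ± 0.18 on the log2 scale, or 0.60-fold with a 95% interval of 0.46 to 0.78 (adjusted p = 0.147). Among 25 alternative settings it was called in 1, with arrays weighted by quality, at -0.71 (adjusted p = 0.0482, background 0.692%). With the fat marker covariate the difference between combination and vehicle was -0.67 ± 0.24 (0.443). The drug averaged over training gave -0.46 ± 0.13 (0.236). The other probe set of Slc25a36 gave -0.07 ± 0.29 for the combination against vehicle, with all groups overlapping, so the 2 probe sets disagree in size.

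Its relative Slc25a33, which also carries pyrimidine nucleotides, had 343, 283 and 218 with the combination, 230.0, 263 and 251 with GW, 246, 222 and 257 with exercise, and 229, 273 and 291 with vehicle. All groups overlapped, and the combination differed from vehicle by 0.07 ± 0.16 on the log2 scale.

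Slc25a26, which brings S-adenosylmethionine into mitochondria for methylation, had 212, 178 and 222 with the combination, 241, 252 and 242 with GW, 189, 234 and 174 with exercise, and 229, 248 and 257 with vehicle. Both trained groups had lower means than both sedentary ones. The combination arrays lay below all GW arrays and below all vehicle arrays, and the exercise arrays overlapped vehicle at 1 array. Training averaged over the drug gave -0.29 ± 0.10 (log2; adjusted p = 0.421), the lowest adjusted p of the family in that comparison. Its other probe set gave -0.10 ± 0.13.

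Slc25a42, the coenzyme A carrier, had 447, 425 and 357 with the combination, 341, 354 and 383 with GW, 287, 314 and 389.6 with exercise, and 286, 364 and 303 with vehicle. The groups overlapped, with a log2 difference of 0.37 ± 0.14 between the combination and vehicle (adjusted p = 0.425) and 0.25 ± 0.10 for the drug averaged over training (0.532). With the fat marker covariate the combination differed from vehicle by 0.52 ± 0.18 (0.441). Slc25a51, the NAD carrier, had 686, 726 and 751 with the combination, 586, 674 and 656 with GW, 647, 671 and 627 with exercise, and 666, 715 and 725 with vehicle. The combination arrays were above those of GW and of exercise and overlapped vehicle, with an interaction of 0.29 ± 0.13 (0.727). Its other probe sets gave interactions of -0.14 ± 0.17 and 0.18 ± 0.70, so the probe sets differ in sign.

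The iron and glutathione carriers serve haem, iron-sulfur clusters and redox defence. All 3 were tested and 0 were called, and their log2 differences from vehicle lay between -0.27 and 0.18 in the 3 comparisons. Slc25a37, mitoferrin-1, which imports iron for haem, had 146, 83.1 and 93.5 with the combination, 96.9, 107 and 97.4 with GW, 103, 104 and 162 with exercise, and 136, 99.7 and 131 with vehicle. Slc25a39, the glutathione carrier, had 1615, 1523 and 1662 with the combination, 1989, 1358 and 1480.1 with GW, 1532, 1483 and 1617 with exercise, and 1479, 1423 and 1348 with vehicle. Combination and exercise arrays of Slc25a39 lay above vehicle without overlap, by 0.18 ± 0.12 (adjusted p = 0.643) and 0.12 ± 0.12 (0.739), while all groups of Slc25a37 overlapped. The other probe sets of Slc25a39 gave -0.10 ± 0.14 and -0.0024 ± 0.21 for the combination against vehicle, so the probe sets differ in sign.

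Slc25a30 and Slc25a14 are relatives of the uncoupling proteins, with substrates that are still debated. Slc25a30, also called KMCP1 from its expression in kidney, had signals of 312, 124 and 131 with the combination, 283, 214 and 352 with GW, 335, 278 and 344 with exercise, and 231, 183 and 239 with vehicle. Combination arrays 2 and 3 were the lowest of all 12, while combination array 1 lay within the GW and exercise groups. The exercise arrays were all above the vehicle arrays, by 0.56 ± 0.28 on the log2 scale (adjusted p = 0.511).

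With all arrays the log2 difference of Slc25a30 between the combination and exercise was -0.89 ± 0.28 (adjusted p = 0.359), and the interaction was -1.25 ± 0.40 (0.703). Its other 2 tested probe sets gave -0.82 (0.0771) and -0.97 (0.261) for the combination against exercise, and -1.16 (0.329) and -1.30 (0.644) for the interaction. The second probe set had 158, 111 and 117 with the combination, 224, 172 and 198 with GW, 209, 239 and 224 with exercise, and 143, 152 and 175 with vehicle. There the combination arrays lay below all exercise arrays and all GW arrays and overlapped vehicle. The third probe set had 110, 84.1 and 70.9 with the combination and 217, 124 and 137 with GW. It had 153, 219 and 148 with exercise, and 154, 84.9 and 143 with vehicle. Its combination arrays also lay below all exercise and all GW arrays and overlapped vehicle.

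The values of the summary probe set of Slc25a30 depended on combination array 1, those of the other 2 less so. Without that array the log2 difference in the summary probe set was -1.32 for the combination against exercise (adjusted p = 0.00716, background 0.611%), -1.12 for the combination against GW (0.0363, background 0.258%) and -1.68 for the interaction (0.0482, background 0.0663%). Without combination array 2 the summary probe set gave -0.46 for the combination against GW, where all arrays gave -0.69. Without combination array 1, the second probe set gave -0.98 against exercise (0.0165), and with all arrays weighted by quality it gave -0.85 (0.0388, background 0.287%). The third probe set gave -1.14 against exercise without combination array 1 (0.145). The arrays that remain without combination array 1 in the combination group are the 2 with the high fat cell markers. With the fat marker covariate over all 12 arrays, the differences between combination and exercise were -0.37 (0.854) in the summary probe set and -0.59 (0.465) and -0.75 (0.662) in the others.

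Slc25a14, near the filter on low signal, ranged over 25.4 to 63.1 with the combination, 15.5 to 46.4 with GW, 11.0 to 44.8 with exercise, and 9.04 to 56.3 with vehicle. Its 95% interval for the combination against vehicle ran over -0.91 to 2.14 on the log2 scale, too wide to place it.

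Carriers whose substrate is not settled numbered 5, of which 4 were tested and 0 called. Slc25a47, a carrier found mostly in liver, had 72.4, 74.5 and 64.2 with the combination, 51.4, 48.2 and 38.0 with GW, 70.4, 42.2 and 44.9 with exercise, and 43.3, 22.7 and 44.3 with vehicle. The combination arrays lay above all GW and all vehicle arrays, with a log2 difference from vehicle of 1.00 ± 0.33 (adjusted p = 0.329). With the fat marker covariate that difference was 0.99 ± 0.45 (0.549). The lowest vehicle array was below the background level.

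Slc25a53 had 41.9, 50.0 and 62.0 with the combination, 13.8, 26.6 and 25.4 with GW, 58.6, 58.8 and 62.1 with exercise, and 3.03, 37.3 and 61.3 with vehicle. Its averaged training difference, 1.46 ± 0.56 on the log2 scale (adjusted p = 0.476), rests on dim values, since GW array 1 and vehicle array 1 lay below the background level of 23.5. It was 0.79 without vehicle array 1, the one at 3.03.

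The members not described above were Slc25a17, a peroxisomal carrier of coenzyme A and related cofactors, Slc25a28 (mitoferrin-2), Slc25a29 (basic amino acids), Slc25a35, Slc25a38 (glycine), Slc25a45 and Slc25a46, an outer membrane protein of mitochondrial dynamics. Their log2 differences from vehicle lay between -0.31 and 0.32 in the 3 comparisons, with 0 called. The other 4 probe sets of Slc25a29 ran from -1.52 ± 0.68 (adjusted p = 0.462) to 0.20 ± 0.26 (0.828) for exercise against vehicle, where the summarised one gave 0.12 ± 0.22. Among the summarised probe sets of these genes only that of Slc25a46 had groups that did not overlap. Its combination arrays, at 460.1, 461 and 424, lay below its vehicle arrays, at 491, 496 and 475. The difference was -0.12 ± 0.12 on the log2 scale (adjusted p = 0.781). The other probe set of Slc25a46 gave -0.24 there, with overlapping arrays, at 366, 440 and 361 for the combination and 650, 348 and 423 for vehicle. Its combination arrays lay below its GW arrays, at 632, 505 and 566. For GW against vehicle the 2 probe sets differed in sign, at -0.02 and 0.31.

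Groups that do not overlap, with every array of 1 group on the same side of every array of the other, were counted over the family. For the combination against vehicle there were 10 of 28 genes, where 16.6% of all genes did not overlap. Of these 6 lay above vehicle (background 7.14%) and 4 below (background 9.45%). For GW against vehicle there were 2, where the background was 10.9%. These were Slc25a4 above (background 4.71%) and Slc25a23 below (6.22%). Exercise against vehicle had 6 (background 18.1%). Slc25a3, Slc25a4, Slc25a11, Slc25a30 and Slc25a39 lay above (background 8.75%) and Slc25a15 below (9.38%). The combination had 4 against exercise (background 16%), with Slc25a23 and Slc25a51 above (7.67%) and Slc25a3 and Slc25a36 below (8.29%). It had 7 against GW (background 10.2%), with Slc25a22, Slc25a23, Slc25a47, Slc25a51 and Slc25a53 above (5.15%) and Slc25a26 and Slc25a36 below (5%). With 6 arrays a side, the averaged drug and training comparisons had 0 each (background 0.693% and 0.252%).

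The share for the combination against vehicle, 35.7%, was above its background, and so was that against GW, at 25%. The genes behind it run both ways: Slc25a4, Slc25a5, Slc25a11, Slc25a23, Slc25a39 and Slc25a47 lay above vehicle, and Slc25a15, Slc25a26, Slc25a36 and Slc25a46 lay below. All 10 had an adjusted p of 0.147 or more in that comparison.

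**Figure D4:**
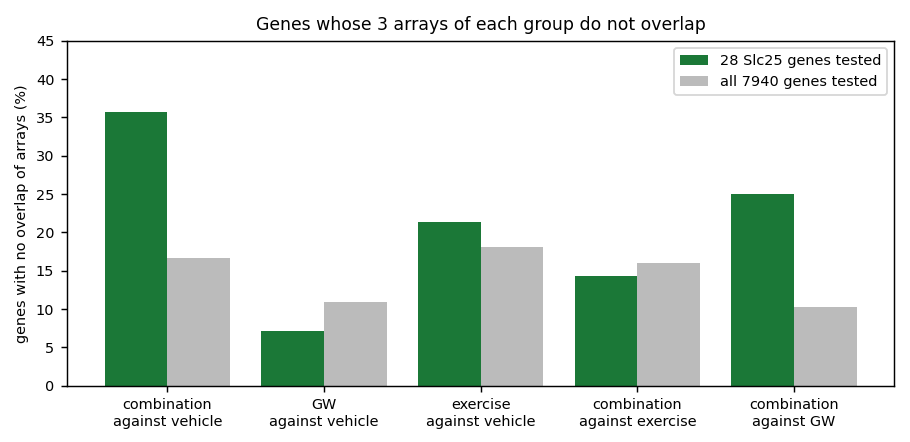
Percentage of genes whose 3 arrays of one group all lay on the same side of the 3 arrays of the other (vertical axis, from 0), for the 28 Slc25 genes tested and for all 7940 genes tested, in 5 comparisons. The family is at 35.7% against 16.6% for the combination against vehicle and at 25% against 10.2% for the combination against GW, and nearer the background in the other 3.

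The median log2 fold change over the 28 genes was 0.11 for the combination against vehicle, -0.01 for GW and -0.01 for exercise, where the medians over all genes tested were -0.01, -0.02 and -0.01. For the combination 20 of 28 genes (71.4%) were above 0, where 47.7% of all genes were. For GW there were 14 (50%, all genes 46.5%) and for exercise 13 (46.4%, all genes 49.1%). The combination median was 0.01 without vehicle array 1. Genes of mitochondrial content, a list of 14 such as respiratory chain subunits, gave medians of 0.13, 0.11 and 0.15 in the same order, with 13, 12 and 13 of 14 above 0 and 0 called. Their summed signal was 75653 to 77876 with the combination, 71833 to 78751 with GW, 76515 to 80326 with exercise, and 69114 to 71787 with vehicle. Every array from drug-treated or trained mice thus lay above all vehicle arrays, GW array 2 only barely. The muscle fibre markers had medians of 0.17, 0.13 and 0.23 in the same order, so a rise over vehicle was not particular to mitochondrial genes.

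Other proteins of mitochondrial membrane transport were counted beside the carriers. Of 24 on the array, among them porins, import subunits and the pyruvate carrier, 22 were tested. Only Ucp3, the muscle uncoupling protein and itself a member of the same protein family under another symbol, was called. It had 1253, 1298 and 1354 with the combination, 1623, 1219.6 and 1468 with GW, 1049, 1105 and 953 with exercise, and 723, 549 and 635 with vehicle. The log2 difference from vehicle was 1.04 for the combination (adjusted p = 0.000705), 1.18 for GW (0.000181) and 0.71 for exercise (0.0815). No Slc25 gene had a difference from vehicle of that size with an error as small as the 0.12 of Ucp3.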

How the data were processed

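Quadriceps RNA was hybridised to 12 mouse expression arrays, 3 per group. The authors deposited linear signal intensities, computed with MAS5 per the submitters' processing notes, with no version stated there. With the lowest and highest 2% left out, array means lay between 200.093 and 200.098. Values were log2-transformed with no pseudocount. Of 22690 probe sets, 64 controls were left out and those in the upper 60% by mean log2 level (mean signal above 28.4) were tested. The background level was the 95th percentile of 27 bacterial control probe sets.

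In R 4.3.3 with limma 3.58.1, 1 model with 4 group means covered all 12 arrays, leaving 8 residual degrees of freedom; variances were moderated with a trend on intensity. The 8 comparisons had two-sided tests, and p-values were adjusted by Benjamini-Hochberg over 13575 probe sets. The script was tested on simulated data. The number of arrays limits the precision. The p-values set group differences against the moderated spread between pools, not between mice.

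Array annotation gave 1 symbol for 20393 probe sets, several for 691 and none for 1606. No Slc25 symbol was on a probe set with several. All 32 genes had a RefSeq gene identifier and 0 changed symbol.

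The genes named with values on every array were those called, the 4 with the lowest p in each comparison, the 6 brightest, and a list of carriers of muscle energy metabolism; other probe sets are given where they differ. The members and lists were chosen with earlier results of these data known. Normalisation, pseudocount, filter, variance model, array weights, gene summary, a fat marker covariate, a replicate block and each array left out were tried as alternatives.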

Additional observations from a re-analysis of the deposited data

How the results depend on the processing

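The count of called Slc25 genes was 0 in 193 of 197 alternative values over the 8 comparisons, under up to 25 settings each. It was 1 (Slc25a36) for the combination against vehicle with array weights. Leaving out each array in turn gave 0 to 1 for the combination against exercise, the combination against GW and the interaction, the 1 being Slc25a30 without combination array 1, and 0 to 0 in the other comparisons. The cause was not tested. Single genes were followed only for the 4 with the lowest p in each comparison, a choice that favours a stable sign. Of 778 such values, 774 stayed on their side of the threshold and 4 passed it (those above). The log2 difference changed sign in 0 of the 778. Outside these, signs did change with the fat marker covariate. The summary probe set of Slc25a30 went from -0.33 to 0.28 for the combination against vehicle. Slc25a10 went from 0.53 to -0.05 for the combination against GW.

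Pairing of the arrays by the numbers in their titles was weak by the average correlation. Deviations from the group means correlated at 0.0131 on average over 18 pairs with the same number. Over 36 pairs with different numbers the average was -0.00651. Of 12 arrays, 8 correlated best with an array of their own number, more than the share of same-number pairs (18 beside 36) would give. With the replicate block the count of called genes was 0 in all 8 comparisons.

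The median over the Slc25 genes moved by more than the spread between arrays in 4 of 197 values. It was 0.11 without the filter for GW against vehicle, 0.09 and 0.08 without exercise array 1 or 2 for exercise against vehicle, and 0.01 without vehicle array 1 for the combination against vehicle. Dim probe sets such as those of Slc25a14 and Slc25a53 limit what could be seen.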
